A study of Danio rerio with 7 samples.

Results

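These data describe cardiomyocytes that carried messenger RNA of cell cycle genes, taken from zebrafish heart ventricles 7 days after cryoinjury, an injury made by touching the heart with a cold probe. A well of a sorted plate was counted as eligible when it held at least 1000 transcripts outside spike-in RNA and mitochondrially encoded genes, with at least 2% of them from MYL7, the atrial and ventricular myosin light chain gene of fish cardiomyocytes. Of 2688 wells, 952 were eligible. An eligible well was called a cycle well when its transcripts from 18 named replication and mitosis genes summed to at least 2, and 62 wells met this rule. A further 54 eligible wells held 1 such transcript and 836 held 0. Each cycle well was set against 2 wells with 0 such transcripts from the same plate, chosen for equal depth, which gave 124 matched wells. Of the 18 symbols, 15 had a row in the files, and MCM2, MCM3 and MCM7 did not. The genes of the rule chose the wells and are therefore described below without a test. They were left out of the gene tests and of the levels of gene lists. Depth, the MYL7 share and the number of genes per well still count them.

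A cell that prepares to divide copies its DNA in S phase, when the sliding clamp encoded by PCNA, the MCM helicase and the enzymes that make deoxynucleotides are in demand. In G2 phase and mitosis it switches to kinases, cyclins and spindle proteins. Most cardiomyocytes of an adult heart are out of the cell cycle. In the injured zebrafish heart, cardiomyocytes beside the wound turn on the natriuretic peptide gene nppa, lose part of their contractile organisation and re-enter the cycle, and this is a main source of new heart muscle in this species.

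The study compared hmga1a-/- and hmga1a+/+ fish, both carrying the reporter Tg(nppa:mCitrine), a transgene in which nppa regulatory DNA drives a yellow fluorescent protein. Hmga1a is a chromatin protein of the high mobility group. Ventricles of adult fish, 12 hearts per genotype, were dissociated at 7 days after injury. Cells, taken here as those with high mCitrine, were sorted 1 per well into plates of 384 wells. They were sequenced by CEL-seq2, which counts the 3′ ends of transcripts by molecular identifiers. The files hold 4 hmga1a-/- plates with 1536 wells, called mutant replicates 1 to 4 here, and 3 hmga1a+/+ plates with 1152 wells, called wild-type replicates 1 to 3. The series text gives 768 isolated cells per genotype and says that 1 wild-type plate failed in sequencing. The sort is read here as one by the nppa reporter, although the labels' sort text names mCherry. Cardiomyocytes outside the nppa domain may therefore be missing. Uninjured hearts are not among these samples. Neither the strain nor the exact age is given in the labels.

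Plate totals lay between 310267 and 808070 transcripts, and wild-type replicate 1 and mutant replicates 1 and 2 shared sequencing run 1 while the other plates shared run 2. All 7 plates use the same 384 well labels, and no eligible wells held identical values. No label links a plate to an animal: the p-values below therefore rest on plate-to-plate spread, part of which may be technical. In the edgeR tests this spread is in large part pooled over genes. The edgeR p-values therefore do not measure each gene's own spread between plates alone. Those of the interaction test are a further exception, described with that test. Within plates the matching held: median depth per plate was 2309 to 4968 transcripts in cycle wells and 2303 to 4828 in matched wells. Every cycle well held MYL7 by the rule, so MYL7 does not bear on the label as cardiomyocytes. Of 18 cardiomyocyte markers in the files, MYL7 among them, 15 had transcripts in cycle wells. Of the markers that the rule did not use, cmlc1, actc1a, tnnc1a, TNNT2 and tpm4a were found in all 62. The targeted gene hmga1a had 8 transcripts in mutant cycle wells and 32 in wild-type cycle wells, and its values by plate stand with the genotype comparison.

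The 62 cycle wells held 371 transcripts of the genes that chose them. PCNA, the replication clamp, supplied 180 of these and was found in 47 wells; 25 wells qualified by PCNA alone and 15 held none. The helicase subunits MCM4, MCM6 and MCM5 had 36, 32 and 16 transcripts in 15, 14 and 6 wells. TYMS, which makes thymidylate, had 18 transcripts in 9 wells, and RRM1, the large subunit of ribonucleotide reductase, had 14 in 5 wells, all of them mutant. The small subunit RRM2 is present in the files under 2 gene identifiers: 11 transcripts in 1 well for ENSDARG00000020711 and 8 in 4 wells for ENSDARG00000078069. Of the genes of G2 and mitosis, the kinase gene CDK1 had 19 transcripts in 7 wells, the mitotic kinase gene plk1 had 11 in 2 wells, and the proliferation marker mki67 had 8 in 3 wells. CENPF and TOP2A each came from 1 well, with 6 and 5 transcripts, AURKB had 4 in 3 wells, CCNB1 had 3 in 2 wells, and CCNA2 had 0. In all, 48 wells held replication genes only, 4 held genes of G2 and mitosis only, and 10 held both. Among the wells just inside the rule, 20 had exactly 2 cell cycle transcripts, against the 54 just outside it with 1.

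The first question was whether loss of hmga1a changed how many of the sorted cardiomyocytes carried cell cycle transcripts. Cycle wells made up 11.9, 7.79, 4.76 and 5.51% of eligible wells in mutant replicates 1 to 4, against 4.35, 5.18 and 7.53% in wild-type replicates 1 to 3. The means were 7.50 ± 3.22% (SD, n = 4 plates) in mutant and 5.69 ± 1.65% (SD, n = 3 plates) in wild type, and the ranges overlapped. The difference of 1.81 percentage points was below the SD of the mutant plates and above that of the wild-type plates (two-sided exact permutation test, p = 0.4). The smallest p this design allows is 0.0571. The sign depended on the sequencing run: mutant minus wild type was 5.51 points in run 1, which has 1 wild-type plate, and -1.22 points in run 2. With every well thinned to 1000 UMIs, the shares were 3.25 ± 1.52% in mutant and 2.29 ± 1.07% in wild type (exact permutation p = 0.457). These shares come from few wells: 13 of 109, 6 of 77, 8 of 168 and 7 of 127 in the mutant plates, and 4 of 92, 10 of 193 and 14 of 186 in the wild-type plates.

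**Figure D1:**
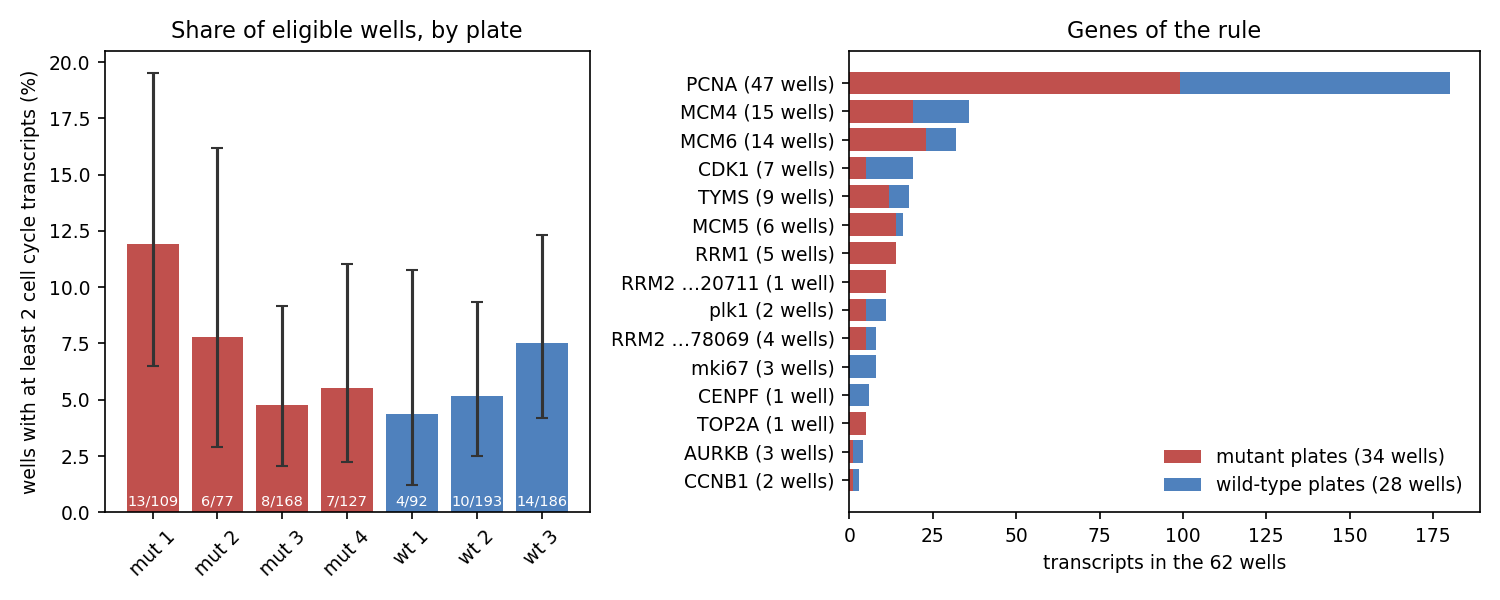
Cycle wells as a percent of eligible wells in each plate, mutant plates left of wild-type plates with exact 95% binomial intervals for counting error, and the transcripts of each gene of the rule summed over the 62 cycle wells. The mutant plates lie between 4.76 and 11.9% and overlap the wild-type plates at 4.35 to 7.53%, and PCNA holds 180 of the 371 transcripts.

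The rule used a count of at least 2. Levels of genes outside the rule differed with that count, though not at every step in the same direction. Wells were grouped by 0, 1, 2, 3 to 5 or at least 6 cell cycle transcripts, which gave 836, 54, 20, 28 and 14 wells. Other DNA replication genes, a list of 49 genes in the files that the rule did not use, had transcripts in 32.8, 61.1, 70.0, 71.4 and 92.9% of the wells of these groups. Depth also differed, with medians of 2245, 2751, 2427, 3524 and 3266 transcripts, so these 5 shares were not taken at equal depth. The median level of other mitosis genes was 12.17, 19.1, 22.2, 26.4 and 38.3 transcripts per 10000, and that of histone and chromatin genes was 19.6, 23.4, 25.7, 27.2 and 35.6. As a mean over wells, the level of other mitosis genes was 26.6 at 1 cell cycle transcript and 24.2 at 2. Sarcomere genes ran the other way, at 2007, 1887, 1857, 1672 and 1663 transcripts per 10000. MYL7 made up a median of 6.68, 5.89, 5.85, 5.55 and 4.65% of transcripts in the same groups. Wells of a group come from shared plates, so these steps are a description without a test.

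DNA replication genes outside the rule were higher in cycle wells than in matched wells in all 7 plates. Transcripts of at least 1 such gene were seen in 84.6, 83.3, 62.5 and 100% of cycle wells of mutant replicates 1 to 4 and in 50, 70 and 71.4% of those of wild-type replicates 1 to 3. In matched wells of the same plates the shares were 15.4, 25, 43.8 and 57.1% and 25, 55 and 35.7%. The mean share was 74.6 ± 16.4% in cycle wells and 36.7 ± 16.0% in matched wells (SD, n = 7 plates; exact paired sign-flip test, p = 0.0156). That p is the smallest that 7 plates can give, and adjusted over the 30 measures tested in this way it is 0.0586, so no measure of this kind passed 0.05 after adjustment. The per-plate median level was 7.02 ± 4.87 transcripts per 10000 in cycle wells and 0.489 ± 0.857 in matched wells (SD, n = 7 plates), higher in 7 of 7 plates. With wells thinned to 1000 UMIs the level was higher in only 4 of 7 plates and lower in 0 (exact paired p = 0.125). The share stayed higher in 7 of 7. With 1 matched well per cycle well, the level was higher in 6 of 7 plates (exact paired p = 0.0625).

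Pooled over plates, the 49 replication genes gave 312 transcripts in cycle wells and 101 in matched wells, which is 12.3 and 2.03 per 10000. The ratio was 6.06, with a counting interval of 4.83 to 7.66 that covers counting error only, and 83 of the 312 transcripts came from 1 well. Transcripts were seen from 44 of these genes in cycle wells and from 27 in matched wells, and 43 were higher per 10000 in cycle wells. The same counts over all genes are not given here. Loading and firing of replication origins was represented by CDC6, which loads the helicase, with 17 transcripts in 3 cycle wells and 0 in matched wells. The GINS helicase subunits GINS4 and GINS2 had 15 and 14 transcripts, each in 7 cycle wells, and 0 in matched wells. Against a floor of 3 transcripts over all matched wells the ratios were 11.1, 9.81 and 9.15, with no counting error allowed for the cycle side. A large part came from 1 well each: 13 of the CDC6 transcripts and 6 of the GINS2 transcripts, without which the ratios were 2.77 and 5.54.

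Chromatin assembly behind the fork was represented by chaf1a and CHAF1B, subunits of chromatin assembly factor 1. The first had 27 transcripts in 12 cycle wells and 10 in 3 matched wells, a ratio of 5.30 (counting interval 2.48 to 12.3), and the second had 10 transcripts in 3 cycle wells, 8 of them in 1 well, and 0 in matched wells. LIG1, the ligase that joins Okazaki fragments, had 17 transcripts in cycle wells and 6 in matched wells. RPA1 and RPA3, subunits of the single-strand DNA binding complex, had 13 and 12 transcripts in cycle wells, against 5 and 4 in matched wells. PRIM2, a primase subunit, had 10 transcripts in 8 cycle wells and 1 in matched wells. CCND2, a G1 cyclin on the same list, had 13 transcripts in 11 cycle wells and 14 in 11 matched wells. Only chaf1a of the 49 genes reached the total of 30 needed for the gene test, where it did not pass (log2 fold change 3.07, SE 1.03, edgeR quasi-likelihood adjusted p = 0.2).

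Mitosis genes outside the rule were also higher in cycle wells in all 7 plates. Median levels were 18.7, 33.9, 20.9 and 29.5 transcripts per 10000 in cycle wells of mutant replicates 1 to 4 and 33.7, 26.4 and 31.7 in those of wild-type replicates 1 to 3. Matched wells of these plates were at 14.1, 9.95, 12.3 and 11.7 and at 12.09, 13.6 and 7.75, with no overlap between sides. The means were 27.8 ± 6.10 in cycle wells and 11.6 ± 2.18 in matched wells (SD, n = 7 plates; exact paired p = 0.0156, adjusted 0.0586). Of 57 genes in the files, 49 had transcripts in cycle wells and 18 in matched wells, and 48 were higher per 10000 in cycle wells. Many of them, such as NUSAP1, MAD2L1 and kif11, were seen in 1 cycle well only. Single wells held 150 and 116 of the 929 transcripts on the cycle side. The same counts over all genes are not given here, and cycle wells held more genes at equal depth (below). Most of the transcripts came from the tubulins and RAN, which non-dividing cells also use; the 52 genes too low for the gene test gave 153 transcripts in cycle wells and 44 in matched wells.

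Of the 57 mitosis genes, 5 entered the gene test and 3 of these passed it. STMN1 reached the total of 30 only through its cycle wells, so the 5 do not stand for the list. Over all 1676 genes tested, 0.298% were called higher and 0.298% were called lower at an adjusted p of 0.05, or 0.597% in either direction. STMN1, which encodes the microtubule-destabilising protein stathmin (ENSDARG00000004169), had 40.7, 47.9, 39.9 and 283 CPM (transcripts per 1000000) in cycle wells of mutant replicates 1 to 4 and 360, 248 and 90.7 in those of wild-type replicates 1 to 3. Matched wells had 0 in all 4 mutant replicates and 0, 19.6 and 12.16 in the wild-type replicates. The log2 fold change was 4.08 (SE 0.96, edgeR quasi-likelihood adjusted p = 0.0412), and it rests on 35 transcripts in 13 cycle wells and 3 in 3 matched wells. Of the 35 STMN1 transcripts, 10 came from 1 well. RAN, the GTPase that directs nuclear transport and spindle assembly, had 876, 910, 1116 and 1417 CPM in mutant cycle wells and 1439, 647 and 1089 in wild-type cycle wells. Its matched wells had 489, 578, 445 and 787 CPM in mutant and 482, 519 and 583 in wild type. Cycle wells were above their own matched wells in every plate, and RAN differed by 0.89 on the log2 scale (SE 0.22, edgeR adjusted p = 0.0412).

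The alpha-tubulin gene tuba8l4 also passed, with a log2 fold change of 1.98 (SE 0.48, edgeR adjusted p = 0.0412). It had 224, 0, 279 and 1197 CPM in mutant cycle wells and 360, 628 and 295 in wild-type cycle wells, against 46.6, 138, 84.8 and 60.6 in mutant and 80.3, 167 and 72.9 in wild-type matched wells. Mutant replicate 2, with 0 transcripts in its 6 cycle wells, ran against the other 6 plates. Of the 107 tuba8l4 transcripts in cycle wells, 26 came from 1 well. The tubulin genes tuba1b and tubb4b were each higher in 7 of 7 plates and did not pass the test, with log2 fold changes of 1.08 (adjusted p = 0.0598) and 0.88 (adjusted p = 0.127). Below the total needed for the test, TTK, the spindle checkpoint kinase, had 9 transcripts in 3 cycle wells and 0 in matched wells. Against the floor of 3 transcripts its ratio was 5.88, or 2.76 without the well that held 5 of the 9. The cyclin-dependent kinase partner cks2 had 18 in 5 cycle wells and 2 in matched wells, a ratio of 17.7 with a counting interval of 4.23 to 157, and 9.98 without the well that held 8 of them. When wells with at least 2 transcripts of other cell types were left out, 0 of all genes tested passed in edgeR and 53 had an unadjusted p below 0.05, against 141 with all wells. STMN1 was called in 10 of the 17 alternative fits that tested it, RAN in 6 of 24 and tuba8l4 in 8 of 22.

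**Figure D2:**
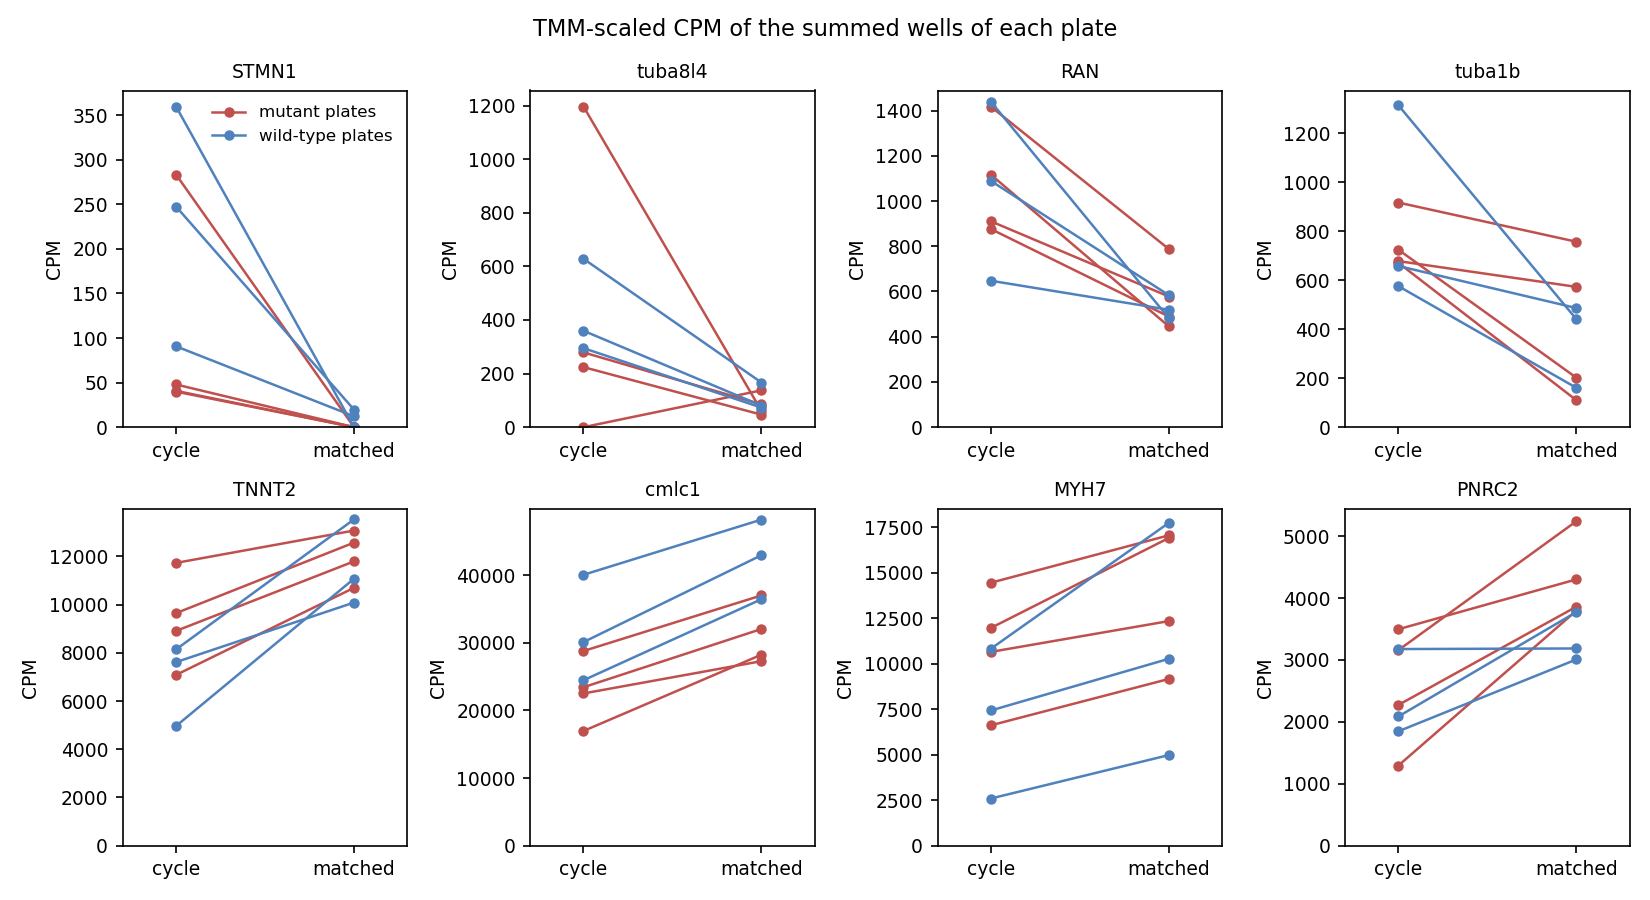
CPM of named genes in the summed cycle wells and the summed matched wells of each plate, cycle wells on the left and lines joining the sides of 1 plate. RAN lies between 647 and 1439 in cycle wells and between 445 and 787 in matched wells, and TNNT2 is lower in cycle wells in all 7 plates.

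Histone and chromatin genes had medians of 31.8 ± 5.96 transcripts per 10000 in cycle wells and 18.3 ± 3.59 in matched wells (SD, n = 7 plates; higher in 7 of 7, exact paired p = 0.0156, adjusted 0.0586). Of 22 members tested, 14 had positive and 8 negative fold changes and none passed, beside 713 positive and 963 negative among all 1676 genes. The positive members include RBBP4 and CBX1, with 26 and 24 transcripts in cycle wells and 5 and 6 in matched wells, which reached the total of 30 only through the cycle side. With wells thinned to 1000 UMIs the level was higher in only 5 of 7 plates (exact paired p = 0.109). The chromatin protein gene hmgb2b, a high mobility group gene known for its expression in dividing cells, had 51 transcripts in 18 cycle wells and 20 in 14 matched wells. It was higher in 7 of 7 plates with a log2 fold change of 2.45 (SE 0.67), and its edgeR adjusted p was 0.0758. The histone chaperone gene SET and the nucleolar chaperone gene npm1a were each higher in 7 of 7 plates, at log2 fold changes of 1.55 (SE 0.54, adjusted p = 0.229) and 1.51 (SE 0.57, adjusted p = 0.339). The targeted gene hmga1a, on the same list, had 40 transcripts in 16 cycle wells and 25 in 13 matched wells, and did not pass the test (log2 fold change 1.77, SE 0.77, adjusted p = 0.495).

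Genes for building ribosomes and for protein breakdown had higher median levels in cycle wells too. Ribosome biogenesis genes had medians of 8.03 ± 2.81 transcripts per 10000 in cycle wells and 3.35 ± 2.10 in matched wells (SD, n = 7 plates; higher in 7 of 7, exact paired p = 0.0156, adjusted 0.0586), and were higher in only 4 of 7 with wells thinned (exact paired p = 0.188). Proteasome genes had 14.5 ± 4.84 in cycle wells and 7.76 ± 1.29 in matched wells (SD, n = 7 plates; higher in 7 of 7, exact paired p = 0.0156, adjusted 0.0586). Of the 15 proteasome genes tested, 13 had positive fold changes and none passed, beside 713 positive and 963 negative among all 1676 genes. The 18 proteasome genes too low for the test gave 102 transcripts in cycle wells and 193 in matched wells. Matched wells were 2 per cycle well, so these counts show little difference between sides. The regulatory subunit gene PSMC6 had 53 transcripts in 12 cycle wells and 14 in 10 matched wells. It reached the total needed for the test only through the cycle side. Ribosomal protein genes, in contrast, had 1171 ± 205 per 10000 in cycle wells and 1106 ± 148 in matched wells (SD, n = 7 plates; higher in 5 of 7, exact paired p = 0.453), and translation factor genes had 280 ± 24.5 and 262 ± 28.8 (exact paired p = 0.156).

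Cycle wells held more different genes at equal depth, which bears on every list of low genes. Thinned to 1000 UMIs, and with the genes of the rule counted, a cycle well held a median of 389 ± 18.7 genes and a matched well 361 ± 18.1 (SD, n = 7 plates; higher in 7 of 7, exact paired p = 0.0156, adjusted 0.0586). A second matching, on depth and on genes per well, was added for this reason and left 389 genes in cycle wells and 378 in matched wells. Under it the median level was 7.02 against 1.17 for other replication genes (higher in 6 of 7 plates), 27.8 against 16.0 for other mitosis genes (7 of 7), 31.8 against 23.9 for chromatin genes (6 of 7) and 8.03 against 3.81 for ribosome biogenesis genes (7 of 7). Proteasome genes were then at 14.5 in cycle wells and 10.5 in matched wells, higher in only 4 of 7 plates (exact paired p = 0.156). Growth signalling genes, at 11.4 ± 4.20 in cycle wells and 8.36 ± 4.11 in matched wells under the depth matching (SD, n = 7 plates; exact paired p = 0.0469, adjusted 0.117), were at 11.4 and 11.6 under the second matching.

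**Figure D3:**
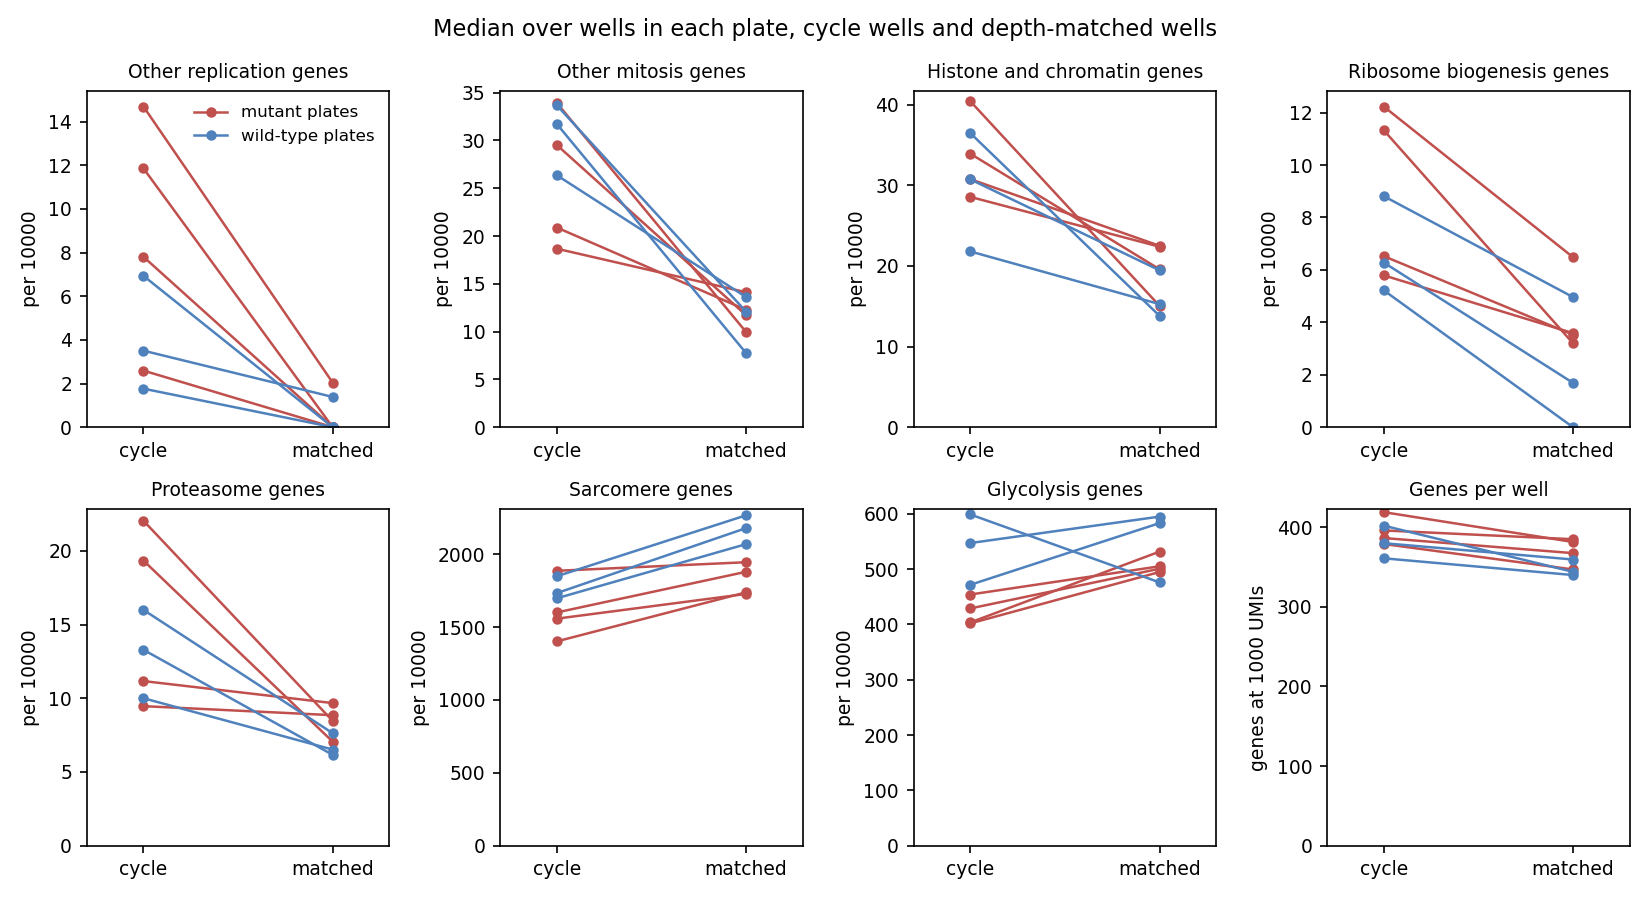
Median level per 10000 transcripts of gene lists in each of the 7 plates, cycle wells left of matched wells and lines joining the sides of 1 plate. Replication, mitosis, chromatin, ribosome biogenesis and proteasome genes are higher in cycle wells in 7 of 7 plates, and sarcomere genes are lower in 7 of 7.

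Genes of the sarcomere, the contractile unit of the muscle cell, had lower median levels in cycle wells in every plate. Their medians were 1600, 1402, 1886 and 1558 transcripts per 10000 in cycle wells of mutant replicates 1 to 4 and 1698, 1733 and 1849 in those of wild-type replicates 1 to 3. Matched wells were at 1879, 1738, 1945 and 1727 in the mutant replicates and 2069, 2179 and 2267 in the wild-type replicates. The means were 1675 ± 170 in cycle wells and 1972 ± 209 in matched wells (SD, n = 7 plates; exact paired p = 0.0156, adjusted 0.0586). Under the second matching the mean difference was -262 per 10000, and cycle wells were again lower in 7 of 7 plates. As means over wells they were lower in 6 of 7 (exact paired p = 0.0312), with mutant replicate 3 at 1932 in cycle wells and 1875 in matched wells. With 1 matched well, and at 3 or more cell cycle transcripts, cycle wells were also lower in 6 of 7 plates (exact paired p = 0.0312 each). MYL7 is a member of this list and also the gene by whose share wells were chosen. With MYL7 taken out of the list and of the total, the levels were 1175 ± 141 in cycle wells and 1387 ± 184 in matched wells (SD, n = 7 plates; lower in 7 of 7, exact paired p = 0.0156), a measure added after the others were seen. MYL7 itself made up 5.61 ± 0.826% of transcripts in cycle wells and 6.57 ± 1.46% in matched wells (SD, n = 7 plates). It was among the 30 measures, but its p is not used, because the rule chose wells by MYL7.

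Of 26 sarcomere genes tested, 22 had negative fold changes with TMM scaling, and TNNT2 and cmlc1 passed. Among all 1676 genes 963 were negative and 0.298% were called lower. TNNT2, the cardiac troponin that anchors the thin-filament switch, had 11734, 8911, 9648 and 7085 CPM in mutant cycle wells and 4965, 7617 and 8143 in wild-type cycle wells. Its matched wells had 13077, 11798, 12577 and 10701 CPM in mutant and 11078, 10090 and 13542 in wild type. It was lower in 7 of 7 plates and fell by 0.54 on the log2 scale (SE 0.13, edgeR adjusted p = 0.0412). The myosin light chain gene cmlc1 averaged 26616 ± 7330 CPM in cycle wells and 36029 ± 7646 in matched wells (SD, n = 7 plates), was lower in 7 of 7 plates and fell by 0.45 on the log2 scale (SE 0.11, edgeR adjusted p = 0.0413). MYH7, a myosin heavy chain gene, was also lower in 7 of 7 plates, with a log2 fold change of -0.49 (SE 0.13) and an adjusted p of 0.0598.

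These calls depended on the scaling, and TNNT2 was called in 6 and cmlc1 in 4 of 24 alternative fits. The median of all genes tested was -0.10 on the log2 scale with TMM scaling and 0.02 with RLE scaling, and the called genes split into 5 higher and 5 lower with TMM but 6 higher and 0 lower with RLE. With RLE the fold change was -0.41 for TNNT2 (adjusted p = 0.231) and -0.32 for cmlc1 (adjusted p = 0.274). The sarcomere list had a median log2 fold change of -0.26 with TMM and -0.13 with RLE, below the median of all genes under both.

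Calcium handling genes had 43.9 ± 7.11 transcripts per 10000 in cycle wells and 51.9 ± 7.41 in matched wells (SD, n = 7 plates; lower in 6 of 7, exact paired p = 0.0312, adjusted 0.0852). The difference was 1.29 in the other direction with a MYL7 floor of 5%. Among them CASQ2, which stores calcium in the sarcoplasmic reticulum, averaged 628 ± 286 CPM in cycle wells and 1064 ± 215 in matched wells (SD, n = 7 plates; log2 fold change -0.71, SE 0.24, edgeR adjusted p = 0.2). Glycolysis genes had 472 ± 74.7 per 10000 in cycle wells and 527 ± 45.8 in matched wells (SD, n = 7 plates; lower in 6 of 7, exact paired p = 0.156). The exception was wild-type replicate 1, the plate with 4 cycle wells, at 599 in cycle wells and 476 in matched wells. Without it the mean difference was -83.8 per 10000, against -54.3 with all plates. That plate was picked for its direction, so no p is given for the 6 plates left. Under the second matching, with all plates, the difference in glycolysis genes was -70.4 (lower in 6 of 7, exact paired p = 0.0312, adjusted 0.0938). GAPDH, the glycolytic dehydrogenase, was lower in 7 of 7 plates with a log2 fold change of -0.39 (SE 0.12) and an adjusted p of 0.143.

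Tricarboxylic acid cycle genes had 202 ± 16.7 per 10000 in cycle wells and 215 ± 28.2 in matched wells (SD, n = 7 plates; exact paired p = 0.188), and nuclear-encoded respiratory chain genes had 854 ± 96.2 and 908 ± 50.8 (exact paired p = 0.234). Under the second matching, tricarboxylic acid cycle genes were lower in 6 of 7 plates (difference -18.9, exact paired p = 0.0312, adjusted 0.0938). Fatty acid genes had 77.7 ± 16.8 in cycle wells and 72.7 ± 11.7 in matched wells (exact paired p = 0.5). Of 80 respiratory chain genes tested, 69 had negative fold changes with TMM scaling and none passed, beside 963 negative among all 1676 genes. The median log2 fold change of the respiratory chain genes was -0.22 with TMM and -0.10 with RLE, against -0.10 and 0.02 for all genes tested.

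**Figure D4:**
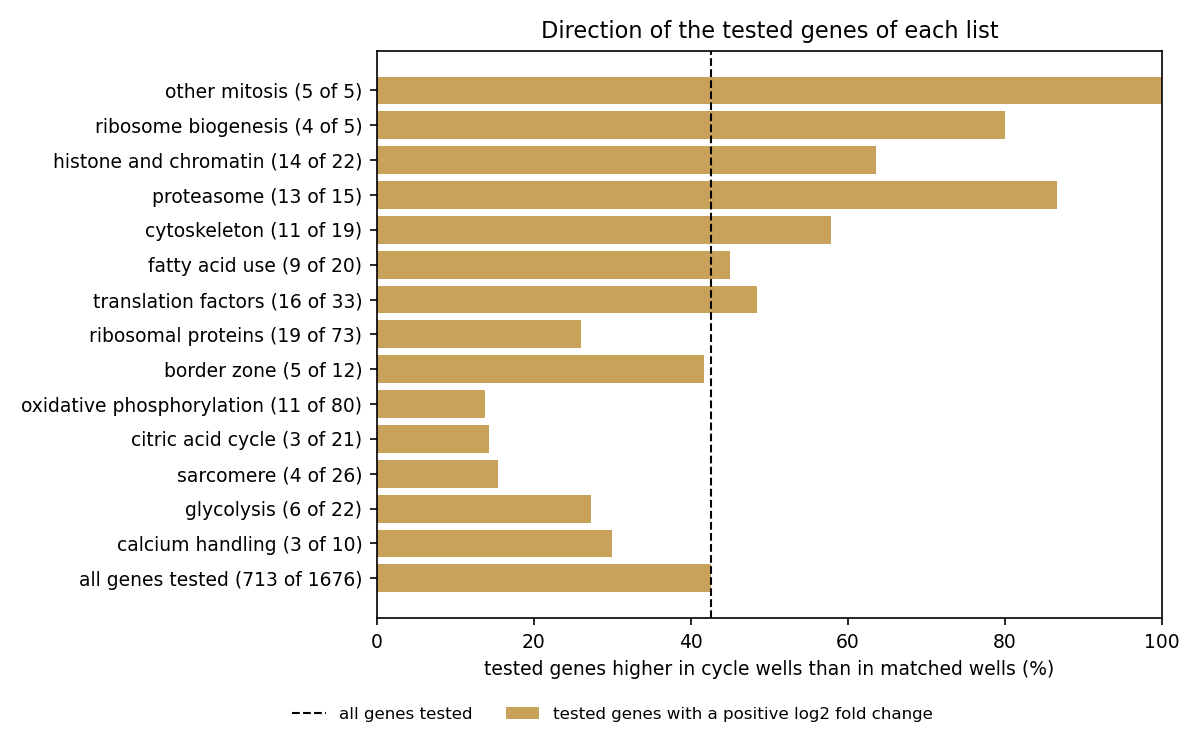
Tested genes of each list by the sign of their log2 fold change, cycle over matched wells, with the same split for all 1676 genes. Sarcomere genes split into 4 positive and 22 negative and proteasome genes into 13 and 2, beside 713 positive and 963 negative among all genes. A gene could reach the total needed for the test through the side where it is high.

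The fish carried an nppa reporter, so the border zone programme was looked at separately. Transcripts of nppa were found in 35 of 62 cycle wells and 68 of 124 matched wells. Border zone genes had 31.4 ± 12.24 transcripts per 10000 in cycle wells and 25.8 ± 6.82 in matched wells (SD, n = 7 plates; higher in 5 of 7, exact paired p = 0.188). The natriuretic peptide gene nppa averaged 476 ± 272 CPM in cycle wells and 488 ± 141 in matched wells (SD, n = 7 plates; log2 fold change -0.19, SE 0.29, edgeR adjusted p = 0.993). Non-muscle cytoskeleton and dedifferentiation genes had 90.7 ± 22.7 per 10000 in cycle wells and 79.4 ± 8.40 in matched wells (exact paired p = 0.344), and immediate early and heat shock genes had 91.9 ± 14.0 and 78.0 ± 11.7 (exact paired p = 0.172). A p that misses the threshold does not show that the sides were alike.

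Transcripts of other cell types were looked for on both sides. At least 2 such transcripts were found in 16 of 62 cycle wells (25.8%) and 22 of 124 matched wells (17.7%), counting endothelial, fibroblast, leukocyte, erythrocyte and thrombocyte markers. The gene podxl gave 51 of these transcripts in cycle wells and 72 in matched wells. Fibroblast and epicardial markers summed to 1.15 to 4.97 transcripts per 10000 over plates in cycle wells and 0.847 to 3.57 in matched wells. In cycle wells 10 of 19 genes were seen. COL1A1, COL1A2 and DCN had 3, 2 and 4 transcripts there and 0 in matched wells, and SPARC had 4 and 2. Others, among them col1a1a, POSTN and TBX18, were at 0 in cycle wells, and col1a1a had 1 transcript in matched wells. Endothelial markers lay at 0 to 4.94 per 10000 in cycle wells and 0 to 0.664 in matched wells, with 8 of 13 genes seen in cycle wells and pecam1a and ERG at 0. Each of these 8 genes was seen in 1 cycle well only, and 1 cycle well held at least 2 endothelial transcripts. In wild-type replicate 2, the plate with the highest endothelial level, 1 cycle well held 40 transcripts of other cell types, with MYL7 at 2.53%. Leukocyte markers gave 9 transcripts of 6 of 24 genes in cycle wells, at 0 to 0.526 per 10000, and 155 transcripts in matched wells, at 0 to 9.46, with ptprc and MPEG1 at 0 in cycle wells. Smooth muscle markers, of which acta2 and TAGLN are also used by immature cardiomyocytes, lay at 0.453 to 14.98 per 10000 in cycle wells and 1.06 to 5.47 in matched wells, with 4 of 8 genes seen in cycle wells and MYH11 and CNN1 at 0. Of the 94 acta2 transcripts in cycle wells, 52 came from 1 well. Erythrocyte markers gave 1 and 2 transcripts and thrombocyte markers 0 and 0.

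Leaving out the wells with at least 2 such transcripts kept 46 cycle wells and ended all 10 gene calls, a set with fewer transcripts and 1155 genes tested. The part of other cell types in the calls was not tested beyond this. The 2 remaining genes called higher have limits of their own. ENSDARG00000093817, which the names table leaves without a symbol, had 286 transcripts in cycle wells and 169 in matched wells. It was higher in 7 of 7 plates, at 1297 ± 653 CPM in cycle wells and 439 ± 353 in matched wells (SD, n = 7 plates; log2 fold change 1.72, SE 0.24, edgeR adjusted p = 8.87e-06). This gene passed in 20 of 24 alternative fits, but its log2 fold change was 0.51 without wells holding other cell type transcripts (adjusted p = 0.992) and 0.76 with a MYL7 floor of 5% (adjusted p = 0.999). NAPG, a vesicle fusion adaptor, had 106 transcripts in cycle wells and 2 in matched wells, but 101 of the 106 came from 1 well of mutant replicate 3, so its call describes that well (log2 fold change 4.92, SE 1.09, edgeR adjusted p = 0.0373). Of the genes called lower, PNRC2, a nuclear receptor coactivator linked to RNA decay, averaged 2475 ± 814 CPM in cycle wells and 3880 ± 741 in matched wells (SD, n = 7 plates) and fell by 0.67 on the log2 scale (SE 0.16, edgeR adjusted p = 0.0412), with 7 of 7 plates lower and a call in 5 of 24 alternative fits. The other two lower genes, ENSDARG00000082180 and ENSDARG00000084962, have no symbol and were lower in 5 of 7 plates each, at log2 fold changes of -0.86 and -0.96. For ENSDARG00000082180 the mean log2 ratio was -1.78 over mutant plates and 0.139 over wild-type plates. It was lower in each mutant plate. It was also lower in wild-type replicate 2 (3713 CPM in cycle wells, 4859 in matched wells) and higher in wild-type replicates 1 and 3. The interaction test below called it too. Its edgeR adjusted p in that test was 0.0945 under the second matching and 0.343 against all wells with 0. For ENSDARG00000084962 the mean log2 ratios were -1.20 over mutant plates and -0.809 over wild-type plates. Among all genes tested, 21 (1.25%) were higher and 40 (2.39%) were lower in all 7 plates.

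Whether the difference between cycle and matched wells itself differed between genotypes was tested by an interaction term. It called 3 of 1676 genes (0.179%), all 3 with a cycle effect that was lower in mutant than in wild-type plates: ENSDARG00000070212, ENSDARG00000082180 and ENSDARG00000096145, none with a symbol. ENSDARG00000070212 had 6030, 2587, 2671 and 8723 CPM in mutant cycle wells, against 10702, 4180, 12641 and 50194 in mutant matched wells. In the wild-type plates it had 12016, 12225 and 11454 CPM in cycle wells, against 6944, 15282 and 8752 in matched wells. The matched wells of mutant replicate 4 stood highest, and the mutant cycle wells lay below every wild-type value of the cycle side. The interaction was -1.86 on the log2 scale (SE 0.28, edgeR adjusted p = 3.89e-08), and those of the other two were -1.82 (SE 0.32, adjusted p = 6.35e-06) and -1.80 (SE 0.31, adjusted p = 3.36e-06). In this fit the unadjusted p-values lie close to those of a normal curve for the effect divided by its SE. They make no allowance for the small number of plates and do not measure each gene's own spread between plates. With edgeR's own expression filter the adjusted p of ENSDARG00000070212 was 0.119, and with a robust fit it was 1.0. No gene of the mitosis or sarcomere lists passed this test, and chaf1a was the only replication gene in it. On simulated data the interaction test recovered 2.78% of genes changed 2-fold and 14.8% of those changed 4-fold. That no such gene passed therefore does not show that the genotypes shared the cycle effect.

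Within cycle wells alone, mutant and wild-type plates were compared with the sequencing run as a covariate, and 1 of 805 genes passed (0.124%). KCNV1, which encodes a silent subunit that modifies potassium channels, had 0, 0, 135 and 0 CPM in mutant replicates 1 to 4 and 890, 1549 and 1146 CPM in wild-type replicates 1 to 3. The groups did not overlap, and the log2 fold change was -5.09 (SE 0.81, edgeR adjusted p = 0.0393), on 3 transcripts in mutant and 128 in wild-type cycle wells. KCNV1 reached the total needed for the test only through the wild-type side. How many of the 805 genes had groups without overlap is not given here. Matched wells held 18 KCNV1 transcripts in mutant and 310 in wild type, so the difference was present in wells without cell cycle transcripts as well. The call was kept in 15 of 19 alternative fits; the adjusted p was 0.115 at 3 or more cell cycle transcripts, 0.149 with mutant replicate 1 left out, 0.765 with wild-type replicate 1 left out and 0.103 with wild-type replicate 3 left out. The targeted gene hmga1a had 0, 56.5, 90.1 and 188 CPM in mutant cycle wells and 356, 414 and 219 in wild-type cycle wells. All mutant plates lay below all wild-type plates, but on 8 and 32 transcripts the log2 fold change of -1.97 (SE 0.93) had an adjusted p of 0.643. A 3′ tag outside the mutated part of the gene would still be counted, and the labels do not give the position of the mutation. No replication gene outside the rule had enough transcripts to enter this comparison. STMN1, RAN, tuba1b, tuba8l4 and tubb4b entered it and did not pass, and 65 genes had an unadjusted p below 0.05.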

How the data were processed

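Single sorted cells of 7 plates were sequenced with CEL-seq2. The authors deposited, per plate, an estimated count of transcripts for each gene and well. From the values, these are numbers of unique molecular identifiers (UMIs) corrected for 4096 possible identifiers: 100% of 857630 values above 0 matched a whole UMI number within 0.0051, while the labels give an identifier of 4 bases. The submitters' processing notes name BWA 0.6.2; no genome build is named by the labels or file headers. Of 16394 gene rows, 13087 had a symbol in the names table, and 91 spike-in rows were set aside. The labels' sort text names mCherry although the reporter is mCitrine.

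Expected counts were summed per plate and side and rounded. The main test was edgeR 4.0.16 (R 4.3.3), a quasi-likelihood fit with TMM scaling and plate as a block, on genes with a total of at least 30, with Benjamini-Hochberg adjustment at 0.05; the block pairs cycle and matched wells of 1 plate by construction. CPM values are TMM-scaled within each fit. The sums held 11245 to 104476 transcripts. On the cycle side the deepest well gave 18.0% (wild-type replicate 3) to 44.8% (mutant replicate 4) of the summed depth of its plate. List levels are medians over the wells of a plate, compared by an exact paired sign-flip test over 7 plates in a family of 30 measures. Shares were compared by exact permutation, with exact (Clopper-Pearson) 95% intervals that cover counting error only. DESeq2 1.42.0 was an alternative, next to other filters, scalings, matchings, floors and left-out plates. No doublet caller was run, since cells were sorted 1 per well.

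On data simulated for the cycle comparison over 1676 genes, 5.37% of genes changed 1.5-fold were recovered, 17.9% of those changed 2-fold and 49.4% of those changed 4-fold, with 0.108% of unchanged genes called. Genes named are those past the threshold with the largest change, then the smallest p in each direction, up to 4 tested members per list, and hmga1a, hmga1b, nppa, nppb and MYL7; members of lists below the test were named by their transcript totals, after these were seen. The wells, lists and tests were chosen with earlier results of these data known.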

Additional observations from a re-analysis of the deposited data

Results flagged for a closer look

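The differences between sides were searched for single plates that stood apart from the other 6, over 34 sets of plate values; chance alone flags about 1 in 20 sets. Wild-type replicate 1, the plate with 4 cycle wells, stood apart in 3 measures. Its MYL7 difference, cycle minus matched wells, was -3.09 percentage points, while the other plates lay between -1.15 and 0.0973. Its difference in transcripts per spike-in transcript was 1.27, with the others between -0.285 and 0.217. Its glycolysis difference was 123 transcripts per 10000, with the others between -128 and -47.8. The tubulin gene tuba8l4 had a log2 ratio of -7.11 in mutant replicate 2, which had no tuba8l4 transcript in its cycle wells, while the other plates lay between 1.71 and 4.28.

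By the interaction test in edgeR, 3 genes differed between genotypes in their cycle effect, mutant minus wild type: ENSDARG00000070212 by -1.86, ENSDARG00000082180 by -1.82 and ENSDARG00000096145 by -1.80 on the log2 scale.

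Wells below the MYL7 floor are not part of the comparisons. Of 81 such wells with at least 1000 transcripts, 5 held at least 2 cell cycle transcripts, which is 6.17% (exact 95% interval 2.03 to 13.8%; a count of 0 would allow up to 3.70%). They were 3 of 53 mutant and 2 of 28 wild-type wells, and the share among eligible wells was 6.51%.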

How the results depend on the processing

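The direction of the replication, mitosis, chromatin, ribosome biogenesis and sarcomere levels was kept under every alternative run; the count of called genes was not stable. At this depth most genes of the replication and mitosis lists had too few transcripts to be tested. The 10 calls between cycle and matched wells became 6 with RLE scaling, 2 with DESeq2, 2 with edgeR's own expression filter, 21 with no filter, 1 with wells thinned, 0 with a MYL7 floor of 5%, 0 without wells holding other cell type transcripts, 2 without the well with most cell cycle transcripts, 0 in run 1 alone, 4 in run 2 alone, 1 with 1 matched well and 148 against all wells with 0. Without the replicate block, with genotype and run in place of plate, 2 genes were called. Leaving out 1 plate gave 1 to 5 calls; each of mutant replicates 3 and 4 and wild-type replicate 2 left 1. The 3 interaction calls became 1 with the expression filter, 5 without wells of other cell types, 5 at 3 or more cell cycle transcripts, 5 without the top well and 6 with 1 matched well, and 3 to 10 with a plate left out. The 1 call between genotypes became 5 with DESeq2, 12 with no filter, 3 thinned, 10 at a floor of 5%, 11 without wells of other cell types, 0 at 3 or more transcripts, 4 without the top well, and 0 to 9 with a plate left out. No paired analysis was possible because, for the genotype comparisons, the labels give plates no replicate numbers: the numbers used here follow the order of deposit and pair no plates.

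Some plate measures lost an unadjusted p below 0.05. The share of wells with other replication transcripts differed by 28.8 points with 1 matched well and 35.0 at 3 or more; the replication level by 5.68 with 1 matched well and 7.86 thinned; the mitosis level by 6.29 at a floor of 5%; the chromatin level by 12.9 thinned and 14.6 at a floor of 5%; ribosome biogenesis by 4.30 thinned; proteasome genes by 3.94 matched on genes per well; genes per well by 22.2 at a floor of 5%. Calcium handling and growth signalling, near the threshold with all plates, lost it in several settings. The MYL7 difference, given here as a description only, was -0.79 points without wells of other cell types and -1.14 to -0.611 with a plate left out. Signs turned for these values, none of which had passed after adjustment: the mitochondrial percent (-0.0988 with 1 matched well, -0.16 unmatched, -0.263 at a floor of 5%) and level (-9.64, -15.7 and -26.2 in these settings, -80.4 as means over wells), fatty acid (-2.25 matched on genes per well, -0.78 at a floor of 5%), growth signalling (-0.161 matched on genes per well), calcium handling (1.29) and cytoskeleton (-5.40) at a floor of 5%. For genes, log2 values turned to -0.97, -0.569 and -0.0884 for xirp1 (floor of 5%, run 1, unmatched), 0.0569, 0.0783 and 0.164 for nppa (floor of 5%, without other cell types, run 1), -0.287 for nppb and -0.058 for DDX21 (unmatched), 0.662 for ncl and -0.353 for hsp70.3 (without other cell types), 0.0557 for BVES (run 2) and 0.0244 for actb2 (3 or more). Interaction values for ENSDARG00000003041 ran, over left-out plates, from -0.00969 without mutant replicate 3 to 1.88 without mutant replicate 1, and turned to -0.888 and -0.899 for ENSDARG00000080337 (floor of 5%, 3 or more) and to 0.971 for hmga1a (floor of 5%). The causes were not tested. A MYL7 floor of 10% was not run, as it leaves 1 cycle well.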
